A study of Mus musculus with 12 samples.

Results

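The Adamts matrix proteases described here are 9 genes of the mouse Adamts family, Adamts1, 2, 4, 5, 9, 10, 12, 16 and 17, chosen by symbol from the 56065 genes of a count table of the submandibular gland (SMG). All 9 passed the filter on low counts, which kept 17893 genes. Bulk RNA-sequencing was done on 12 libraries in 4 groups of 3 mice at 8 weeks of age: C57BL/6J wild-type females, C57BL/6J-Pou2f3-/- females, and the males of both genotypes. The knockout is carried in every cell of the mouse (the Pou2f3 em1Cbwi allele), and Pou2f3 encodes the transcription factor that defines tuft cells, so these groups address what a gland lacking tuft cells expresses in each sex. Whole glands were used, so fewer cells of a type and less RNA per cell cannot be told apart. P-values measure the spread between mice within groups, with 3 mice in each group. In the fit over all 12 libraries, the 4 groups share this estimate of spread. A comparison within either sex therefore also draws on the mice of the other sex.

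ADAMTS proteases are secreted zinc enzymes that cut proteins of the extracellular matrix. They are made as inactive precursors, most of them are trimmed by furin-like convertases, and thrombospondin-type repeats in their tail hold them near the matrix. Adamts1, Adamts4, Adamts5 and Adamts9 cut hyaluronan-binding proteoglycans such as versican and aggrecan, Adamts2 removes the amino-terminal propeptide of fibrillar procollagens, Adamts10 and Adamts17 are tied to fibrillin microfibrils, Adamts12 cuts cartilage oligomeric matrix protein, and Adamts16 has been reported to cut fibronectin.

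The part of each enzyme that binds the catalytic zinc is a short stretch of coding sequence, shown because it is what makes the 9 genes proteases and because it shows how the members resemble each other. The lines give the coding strand of the canonical Gencode M39 transcript on GRCm39, with the codons of the 3 zinc-binding histidines and of the catalytic glutamate in capitals. In each gene the stretch is split by an intron, which is left out of the sequence and lies within the coordinates.
Adamts1 (chr16:85596079-85596433, minus strand): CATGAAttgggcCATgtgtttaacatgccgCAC
Adamts4 (chr1:171080779-171081484, plus strand): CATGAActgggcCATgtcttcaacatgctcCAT
Adamts5 (chr16:85674903-85684714, minus strand): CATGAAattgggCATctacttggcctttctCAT
Adamts9 (chr6:92882266-92885474, minus strand): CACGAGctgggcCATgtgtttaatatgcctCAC
Adamts12 (chr15:11241615-11255650, plus strand): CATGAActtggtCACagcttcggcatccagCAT
Adamts2 (chr11:50666230-50666961, plus strand): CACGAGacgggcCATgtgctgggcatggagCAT
Adamts10 (chr17:33757131-33757253, plus strand): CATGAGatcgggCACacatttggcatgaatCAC
Adamts17 (chr7:66618646-66652221, plus strand): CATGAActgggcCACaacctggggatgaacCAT
Adamts16 (chr13:70935268-70939931, minus strand): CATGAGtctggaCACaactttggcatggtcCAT

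The intron falls after base 10 of the stretch in Adamts1, Adamts4 and Adamts5 and after base 17 in the other 6 genes. The eighth codon, a glycine in 6 members, encodes another residue in Adamts1, Adamts4 and Adamts9. In an alignment of the translated proteins, identity was taken over the positions where neither of a pair had a gap. By it, Adamts1 and Adamts4 were the most alike of the 36 pairs, with 50.88% of 796 residues identical. Adamts2 and Adamts9 were the least alike, with 29.46% of 1127. Adamts1 and Adamts5 are also neighbours on chromosome 16, on the same strand and 53.1 kb apart.

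Total estimated counts ran from 47032175 to 67882207 per library, so that 3 counts, taken as the detection limit, stood at 0.0399 to 0.0782 CPM, the count scaled to the TMM-adjusted library size and used below as the level. TMM factors differed between groups, at 0.625 to 0.759 in wild-type females and 0.902 to 1.03 in female knockouts. In males they were 1.04 to 1.45 and 1.11 to 1.25, so levels depend on this scaling. Rn7s1, a non-polyadenylated RNA, took 11.8% to 39.1% of a library, although the labels call the RNA polyadenylated and the methods describe ribosomal RNA-depleted total RNA. Pou2f3 itself had 1, 0 and 2 counts in the female wild types and 1, 10 and 0 in the male wild types. It had 0 in each female knockout and 0, 3 and 1 in the male knockouts, so whole-gland counts could not check the genotype labels. The summed level of 6 tuft cell markers was 0.0449 to 0.369 CPM in wild-type females and 0.487 to 1.14 CPM in female knockouts, without overlap. In males these sums were 0.471 to 0.625 and 0.468 to 0.644 CPM. Avil, the only tuft marker tested, was called as higher in female knockouts (2.06, edgeR, adjusted p = 0.014). Markers of the gland were present: the summed level of 5 granular convoluted tubule genes was 4311 to 8142 in wild-type females and 43690 to 76373 in wild-type males. Of 13 circadian clock genes, 11 passed the test in female knockouts (2 higher, 9 lower), against 36.9% of all genes. In male knockouts 10 of the 13 passed (2 higher, 8 lower), against 0.235% of all genes. The part of this shift of clock genes in the differences described below was not tested. Adipocyte markers summed to 41.5 CPM in female wild-type replicate 3, against 3.25 and 5.76 in the other wild-type females and 2.40 to 4.88 in the female knockouts. Of the 5 adipocyte markers edgeR called 2 as lower in female knockouts, beside 36.9% of all genes called, and DESeq2 called 4. Over all 17893 genes DESeq2 called 6975 in females, the total beside which each female DESeq2 count is to be read. The fitted change was above 0 for 0 of the 5, with a median of -3.13. Acinar markers ran from 228 to 8373 CPM over the 12 libraries. Macrophage markers summed to 123 CPM in female wild-type replicate 1, against 49.9 and 66.4 in the other wild-type females, and 2 of 5 were called as lower in female knockouts. Myoepithelial and basal cell markers summed to 48.5 to 61.5 CPM in wild-type females and 38.0 to 47.9 CPM in female knockouts, without overlap, with 2 of 4 called as lower by edgeR and 3 by DESeq2. Of the 5 acinar markers 1 was called in females, Aqp5, a water channel gene, which fell (-0.94, edgeR, adjusted p = 0.0011), while 3 of the 5 had a positive fold change and the list's median was 0.87. The part of these markers in the female differences was not tested. Adamts9 and Adamts10 were called in females without either of these replicates. Adamts12 was not, with a fold change of similar size (0.57 without replicate 1 and 0.51 without replicate 3, against 0.59 with all libraries).

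Adamts2, the procollagen N-proteinase, was the most abundant of the 9 per length in every group. Its level per kb of merged exons was 2.19 ± 0.187 in wild-type females, 2.57 ± 0.492 in female knockouts, 7.91 ± 0.542 in wild-type males and 6.66 ± 0.898 in male knockouts (mean ± SD, n = 3). In the male groups it made up 68.6% and 56.6% of the summed level of the 9 genes, wild type and knockout in that order, against 35.3% and 27.2% in females. The order below Adamts2 was loose. In wild-type females, Adamts12, Adamts5, Adamts9, Adamts10, Adamts1 and Adamts17 followed in that order, from 0.878 down to 0.423 per kb, and each overlapped the next over the 3 libraries. Adamts4 and Adamts16 were the lowest in all 4 groups, at 0.0344 and 0.0294 per kb in wild-type females and 0.0216 and 0.00471 per kb in wild-type males. In female knockouts Adamts10 ranked directly below Adamts2 and their ranges overlapped. In male knockouts Adamts5 held that place, at 1.65 ± 0.531 per kb. Adamts10 has 64 annotated transcripts, and the length of its longest one in place of the merged exons placed it first in female knockouts, at 4.54 per kb against 3.30 for Adamts2. By that length Adamts10 also ranked second in wild-type females, at 1.505 per kb, and in male knockouts, at 1.72 per kb against 1.67 for Adamts5.

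**Figure D1:**
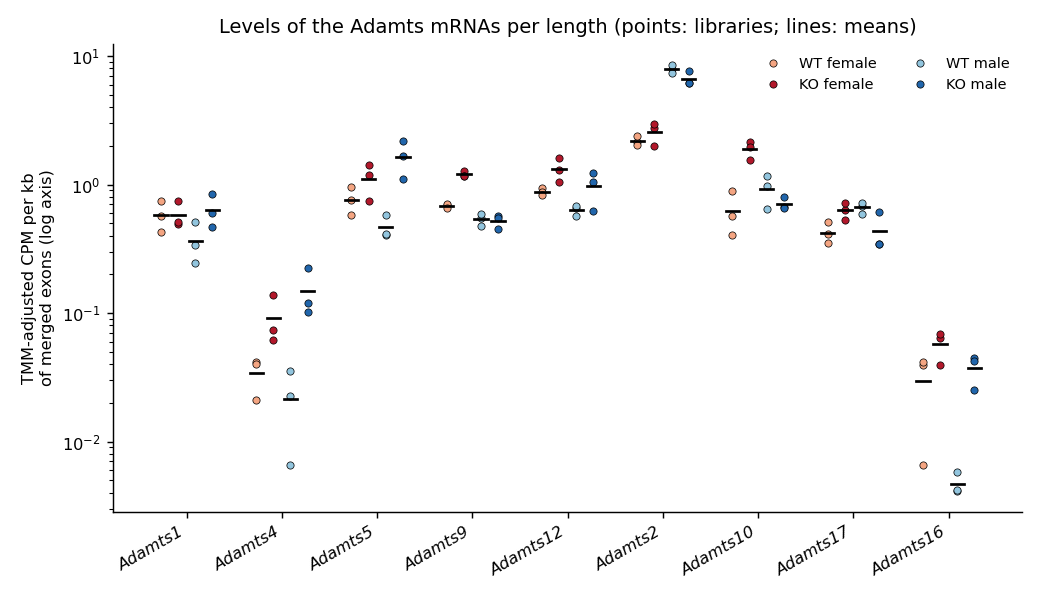
Levels of the 9 mRNAs in TMM-adjusted CPM per kb of merged exons on a log axis; points are single libraries, lines are group means (n = 3). Adamts2 is uppermost in every group and Adamts4 and Adamts16 lie lowest.

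Comparing genotypes within females, 3 of the 9 members were called (adjusted p under 0.05, edgeR quasi-likelihood test with Benjamini-Hochberg adjustment over all genes), all higher in the knockout: Adamts10, Adamts9 and Adamts12. Among all 17893 genes 36.9% were called in that comparison, and 17.6% were called as higher, so the number of members called was near the background. The fitted change was above 0 for 8 of the 9 members, with a median log2 fold change of 0.59, beside 0.03 over all genes tested. The groups did not overlap, with knockouts higher, for 5 members, against 25.2% of all genes. In males only Adamts5 was called, where 0.235% of all genes were called and 0.101% were called as higher. That background was not steady: the 42 calls over all genes became 635 without male knockout replicate 1 and 13 to 15 without male knockout replicate 2 or 3 or male wild-type replicate 1 or 3. Adamts4 and Adamts5 were without overlap and higher in male knockouts, against 6.51% of all genes. Adamts16 was too, but it passed the low-count filter mostly through knockout libraries, so its separation is not counted here. The median male change of the members was 0.61, beside -0.04 over all genes tested.

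**Figure D2:**
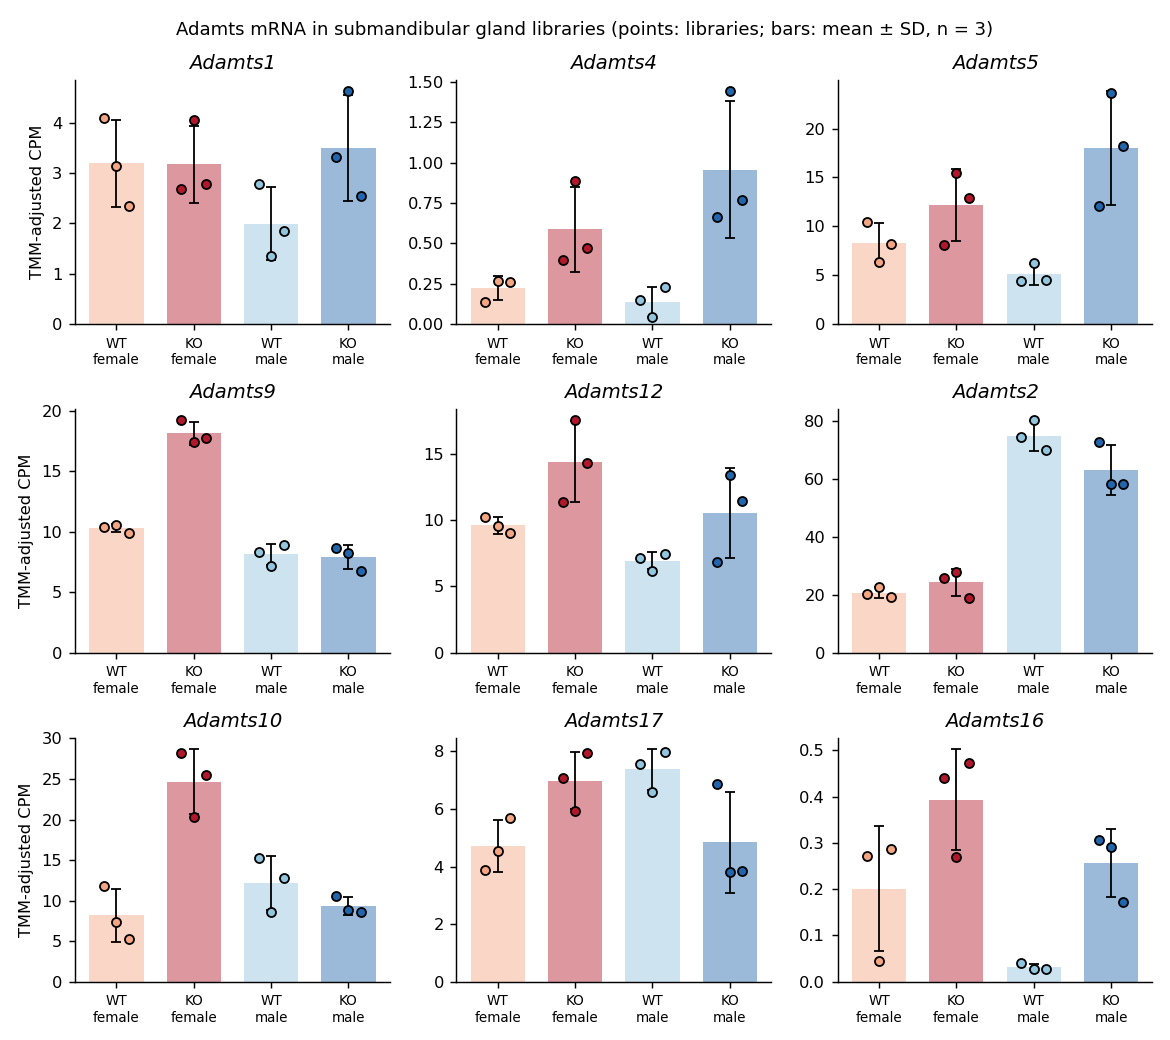
TMM-adjusted CPM of each member in every library (points) with mean ± SD (bars, n = 3) for wild-type (WT) and knockout (KO) glands of each sex; each panel has its own axis from 0. Adamts9 and Adamts10 are higher in female knockouts than in the other 3 groups, and Adamts2 separates by sex. Adamts5 has its highest mean in male knockouts, whose range overlaps that of female knockouts.

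Adamts5 (ENSMUSG00000022894.7), a main aggrecan-cutting enzyme of mouse cartilage, had levels of 4.39, 6.28 and 4.54 CPM in the wild-type males and 12.1, 23.7 and 18.2 CPM in the male knockouts. All 3 male knockouts lay above the highest male wild type. The log2 fold change was 1.83 ± 0.28 (SE), a 3.55-fold difference (edgeR, adjusted p = 0.017). In females the levels were 10.4, 6.37 and 8.21 CPM in wild type and 8.13, 15.4 and 12.9 CPM in knockouts, which overlapped, with a log2 fold change of 0.54 ± 0.27 (edgeR, adjusted p = 0.14). The change in males exceeded that in females by 1.29 ± 0.39 on the log2 scale (edgeR interaction test, adjusted p = 0.030). The interaction call was lost in 5 of the 12 leave-one-out fits, without female knockout replicate 1 (1.15, adjusted p = 0.051) and without each of the 4 male libraries named next (1.05 to 1.28, adjusted p = 0.059 to 0.079). The male call was lost when male knockout replicate 2 or 3 or male wild-type replicate 1 or 3 was left out, with adjusted p-values of 0.092, 0.073, 0.11 and 0.11 and log2 fold changes of 1.58, 1.82, 1.74 and 1.76.

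Fibroblast marker RNA moved with Adamts5 in these libraries. The summed level of Pdgfra, Dpt, Lum, Pi16, Clec3b and Dcn was 141, 178 and 149 CPM in the wild-type males and 205, 346 and 275 CPM in the male knockouts, and all 6 genes had a positive male fold change. In males edgeR called 1 of the 6, Dpt, with a log2 fold change of 1.84 (adjusted p = 0.017), DESeq2 called 5, and all 6 were at an unadjusted p under 0.05. Of all genes tested in males 11.5% were at an unadjusted p under 0.05 by either tool, the share beside which each such male count is to be read. Over all genes DESeq2 also called far more in males than edgeR did. Each male DESeq2 count is to be read beside its total over all genes, given below with the dependence on processing. In females the sums were 211, 157 and 211 CPM in wild type and 148, 251 and 191 CPM in knockouts, which overlapped, and none of the 6 was called by edgeR or DESeq2 (0 at an unadjusted p under 0.05). In both knockout groups the library with the lowest marker sum had the lowest Adamts5 level, and that with the highest sum the highest. Per 100 CPM of these markers, a ratio chosen after the values were seen, Adamts5 was 3.11, 3.52 and 3.04 in male wild type against 5.89, 6.85 and 6.63 in male knockouts, and 4.93, 4.07 and 3.89 against 5.48, 6.13 and 6.77 in females. Neither sex overlapped between genotypes on that ratio, which depends on the markers in it: Dpt alone had a male change (1.84) like that of Adamts5 (1.83). The part of fibroblast RNA in the Adamts5 difference was not tested.

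Other marker sums differed between the male groups as well. Adipocyte markers were at 1.42 to 1.53 CPM in wild type and 2.66 to 32.0 CPM in knockouts, macrophage markers at 48.6 to 59.2 and 62.8 to 108 CPM, and red blood cell markers at 1.45 to 1.73 and 2.89 to 9.86 CPM. These 3 lists held 5, 5 and 4 tested genes, all with a positive male fold change, of which edgeR called 0, with 4, 3 and 3 at an unadjusted p under 0.05, and DESeq2 called 2, 0 and 2. Immediate early genes summed to 82.6 to 93.4 CPM in male wild type and 98.5 to 119 CPM in male knockouts, without overlap. All 7 had a positive male fold change. By edgeR 0 were called and 4 were at an unadjusted p under 0.05, and DESeq2 called 1. The part of these markers and of the immediate early genes in the male differences was not tested.

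Adamts4 (ENSMUSG00000006403.14), an aggrecanase, was scarce. It had 11, 3 and 16 counts in the male wild types and 41, 89 and 49 in the male knockouts, or 0.146, 0.0426 and 0.228 against 0.661, 1.44 and 0.769 CPM. The groups did not overlap, and the ratio of summed counts was 6.87 (95% exact interval 4.65 to 10.5, counting error only). The fitted log2 fold change of 2.76 ± 0.55 did not pass the test over all genes (edgeR, adjusted p = 0.073), and it passed in 3 of 20 alternatives: with DESeq2, without the low-count filter, and without male knockout replicate 1 (adjusted p = 2.7e-04, 0.0037 and 0.021). With other single libraries left out its adjusted p reached 0.39. In females the counts were 7, 12 and 10 against 20, 53 and 22, again without overlap, and the log2 fold change of 1.42 ± 0.56 had an adjusted p of 0.062 (edgeR). The female change passed in 4 of 20 alternatives: DESeq2, upper-quartile scaling, a fit within each sex, and without male wild-type replicate 2 (adjusted p = 0.038 to 0.050). The interaction was 1.35 ± 0.78 and was not called (edgeR, adjusted p = 0.21).

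Adamts1 (ENSMUSG00000022893.15), a versican-cutting enzyme, overlapped between the genotypes in both sexes. Its levels were 4.08, 3.14 and 2.35 CPM in wild-type females, 2.68, 4.04 and 2.79 CPM in female knockouts, 2.78, 1.35 and 1.84 CPM in wild-type males and 3.31, 4.62 and 2.54 CPM in male knockouts. The female log2 fold change was -0.01 ± 0.30 and the male one 0.81 ± 0.30 (edgeR, adjusted p = 0.98 and 0.31). Although it lies beside Adamts5, its male change was smaller and not called.

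Adamts9 (ENSMUSG00000030022.15), which also cuts versican, had the tightest female difference of the 9 genes. Its levels were 10.4, 10.6 and 9.90 CPM in wild-type females and 19.2, 17.5 and 17.7 CPM in female knockouts. The groups lay far apart for their spread, with a log2 fold change of 0.81 ± 0.11, or 1.76-fold (edgeR, adjusted p = 3.8e-04). In males the levels were 8.32, 7.14 and 8.91 CPM in wild type and 8.65, 8.27 and 6.77 CPM in knockouts, with a log2 fold change of -0.04 ± 0.11 (edgeR, adjusted p = 0.93). The male change was lower than the female change by -0.86 ± 0.16 on the log2 scale (edgeR interaction test, adjusted p = 0.0051). Both the female call and the interaction call held in all 12 fits that left out 1 library and under every other setting tried. An antisense lncRNA, A730049H05Rik, shares 1389 exon bases with Adamts9, and the strand setting of the counting is not given in the sources used here.

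Adamts10 (ENSMUSG00000024299.18), a protease of the fibrillin microfibril, had the largest called difference in females. Its levels were 11.8, 7.40 and 5.32 CPM in wild type and 28.2, 20.3 and 25.5 CPM in knockouts. The lowest knockout stood well above the highest wild type, and the log2 fold change was 1.59 ± 0.26, a 3.00-fold difference (edgeR, adjusted p = 7.9e-04). In males the wild types were at 15.2, 8.54 and 12.7 CPM and the knockouts at 10.6, 8.83 and 8.62 CPM, which overlapped, with a log2 fold change of -0.38 ± 0.26 (edgeR, adjusted p = 0.62). The interaction was -1.97 ± 0.37 (edgeR, adjusted p = 0.0048). Both calls held in all 12 leave-one-out fits and under every other setting tried.

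Adamts17 (ENSMUSG00000058145.17), the other member tied to microfibrils, had opposite signs in the sexes. Its levels were 3.89, 4.55 and 5.68 CPM in wild-type females and 7.09, 5.94 and 7.93 CPM in female knockouts, which did not overlap. In males they were 7.55, 6.60 and 7.97 CPM in wild type and 6.86, 3.81 and 3.86 CPM in knockouts, where knockout replicate 1 lay within the range of the wild types. Neither sex was called (log2 fold change 0.57 ± 0.22 in females and -0.61 ± 0.22 in males, edgeR adjusted p = 0.060 and 0.28), whereas the interaction was (-1.18 ± 0.31, edgeR adjusted p = 0.018). The female change was called in 5 of 21 alternatives: upper-quartile scaling, both other low-count filters, a fit within each sex, and without male knockout replicate 1 (adjusted p = 0.015 to 0.042). Without male knockout replicate 1 the male difference was called, at -0.94 (edgeR, adjusted p = 0.018), and without female knockout replicate 3 the interaction was not, at -1.001 (edgeR, adjusted p = 0.054).

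Gene classes moved apart in females. The median log2 fold change in females was -0.08 over 14181 protein-coding genes, 0.62 over 1793 lncRNA genes and 0.91 over 1185 genes of the TEC class, gene models awaiting experimental support, and the male medians were -0.03, -0.12 and -0.24. The part of this shift of gene classes in the female changes of Adamts9, Adamts10 and Adamts17 was not tested.

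Adamts12 (ENSMUSG00000047497.11), a protease of cartilage oligomeric matrix protein, was higher in female knockouts. Its levels were 10.2, 9.56 and 8.99 CPM in wild type and 11.4, 17.5 and 14.3 CPM in knockouts. The groups were apart, with a log2 fold change of 0.59 ± 0.21 (edgeR, adjusted p = 0.045), but the call was lost in 9 of the 12 leave-one-out fits and held in 9 of all 21 alternatives. In males the levels of 7.14, 6.19 and 7.43 CPM in wild type overlapped those of 6.81, 13.4 and 11.4 CPM in knockouts, and the log2 fold change was 0.61 ± 0.21 (edgeR, adjusted p = 0.27). The male value was called at 0.85 (edgeR, adjusted p = 0.019) when male knockout replicate 1 was left out, the fit in which calls over all genes rose from 42 to 635. The changes in the sexes differed by 0.02 ± 0.30. Per 100 CPM of the fibroblast markers, Adamts12 was 5.06, 3.47 and 4.98 in male wild type and 3.32, 3.87 and 4.16 in male knockouts, which overlapped, and 4.83, 6.10 and 4.26 against 7.67, 6.97 and 7.47 in females, which did not.

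Adamts2 (ENSMUSG00000036545.10) did not pass the test between genotypes in either sex. Its levels were 20.3, 22.7 and 19.3 CPM in wild-type females and 25.9, 27.9 and 19.0 CPM in female knockouts (log2 fold change 0.23 ± 0.14, edgeR, adjusted p = 0.23). In males they were 74.3, 80.2 and 69.9 CPM in wild type and 72.8, 58.2 and 58.0 CPM in knockouts (-0.25 ± 0.14, edgeR, adjusted p = 0.53). Both pairs of groups overlapped by this level. With plain library totals in place of TMM the female groups did not, at 15.4, 15.5 and 12.1 CPM in wild type and 26.8, 25.2 and 18.9 CPM in knockouts.

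Adamts16 (ENSMUSG00000049538.15) was the scarcest member, with 3, 2 and 2 counts in the male wild types, which is at or under the detection limit, and 19, 18 and 11 counts in the male knockouts. The ratio of summed counts was 7.90 (95% exact interval 3.55 to 20.7, counting error only). Adamts16 passed the low-count filter mostly through knockout libraries, and it did not pass the filter in the fit within males. The fitted change did not pass the test over all genes (edgeR, adjusted p = 0.11). It passed with DESeq2 (adjusted p = 0.015), without the low-count filter (adjusted p = 0.033) and without female wild-type replicate 2 (adjusted p = 0.048). In females the counts were 14, 2 and 11 in wild type and 22, 16 and 22 in knockouts. Their ratio was 1.91 (1.19 to 3.13, counting error only), and the test over mice had an adjusted p of 0.20 (edgeR). By level these groups overlapped, at 0.272, 0.0449 and 0.287 CPM against 0.439, 0.269 and 0.472 CPM.

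**Figure D3:**
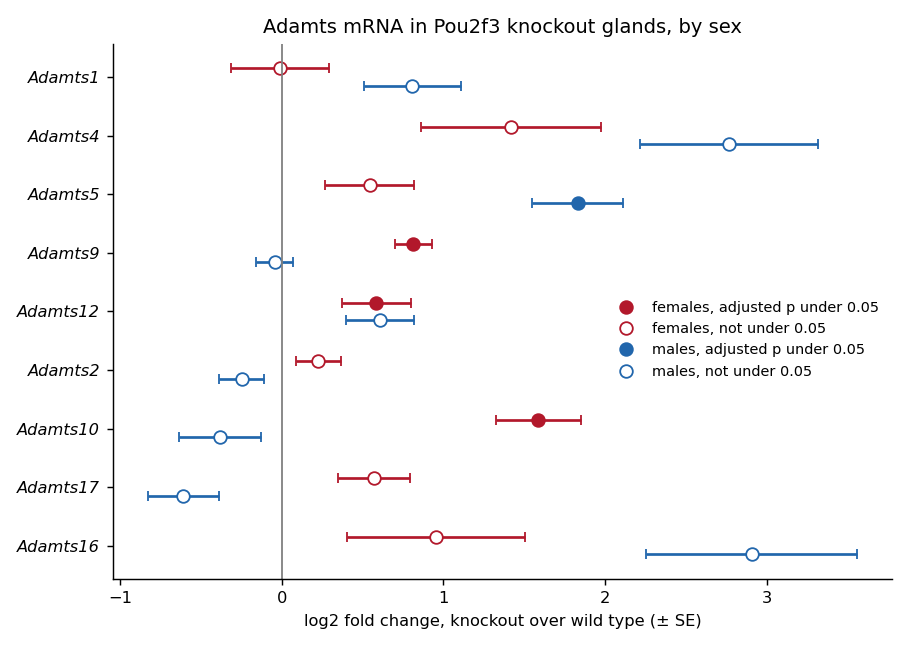
Log2 fold change of each member, knockout over wild type, with its standard error (edgeR), in females and males; filled points have an adjusted p under 0.05. Adamts9, Adamts10 and Adamts17 are above 0 in females and at or below 0 in males, and Adamts4, Adamts5 and Adamts16 have their larger values in males.

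The change in the knockout differed between the sexes for 4 of 9 members by the interaction test, where 25.7% of all genes were called. Adamts9, Adamts10 and Adamts17 had the more positive change in females and Adamts5 in males. The interaction is built from the same libraries as the comparisons within each sex. Of the remaining members, Adamts16 had the largest fitted interaction, 1.95 ± 0.85, which was not called (edgeR, adjusted p = 0.11). It was called without female wild-type replicate 2, the library with 2 counts, at 2.50 (edgeR, adjusted p = 0.027). The Adamts2 interaction was -0.47 ± 0.20 and was not called (edgeR, adjusted p = 0.090). It was called in 3 of 20 alternatives, at -0.58 to -0.54 (edgeR, adjusted p = 0.035 to 0.046). These were upper-quartile scaling and the fits without female knockout replicate 3 or male knockout replicate 1.

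Comparing the sexes within wild type, 4 of 9 members were called, against 36.5% of all genes. Adamts2 was 3.60-fold higher in males (log2 fold change 1.85 ± 0.14, edgeR, adjusted p = 8.6e-07), and the ranges of the 2 sexes were far apart. Adamts17 was higher in males by 0.65 ± 0.22 on the log2 scale (edgeR, adjusted p = 0.035), and Adamts9 was lower, at -0.34 ± 0.12 (edgeR, adjusted p = 0.033). Adamts16 was lower in males (edgeR, adjusted p = 0.0099), with a ratio of summed counts of 0.161 (0.0594 to 0.380, counting error only). The Adamts17 call was lost in 7 of 20 alternatives: with upper-quartile scaling (0.57), with the authors' factors (0.30, adjusted p = 0.35), and without female knockout replicate 1, female wild-type replicate 1 or 2, or male wild-type replicate 1 or 3 (0.49 to 0.63, adjusted p = 0.054 to 0.13). The Adamts9 call was lost in 5 of 20, with the authors' factors, without the low-count filter, and without female wild-type replicate 2 or male wild-type replicate 1 or 2 (-0.39 to -0.26, adjusted p = 0.067 to 0.11). Wild-type males were also below wild-type females without overlap for Adamts5 and Adamts12, at -0.72 ± 0.28 and -0.47 ± 0.21, which were not called (edgeR, adjusted p = 0.059 and 0.10). The Adamts5 difference was called in 10 of 20 alternatives, DESeq2 and the replicate block among them (adjusted p = 0.017 and 0.039), and that of Adamts12 in 1, without male knockout replicate 1 (adjusted p = 0.026).

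Within the knockout, 3 of 9 members were called between the sexes, against 43.5% of all genes. Adamts2 remained higher in males, at 1.37 ± 0.14 (edgeR, adjusted p = 9.6e-06). Adamts9 and Adamts10 were lower in males, at -1.20 ± 0.12 and -1.40 ± 0.26 (edgeR, adjusted p = 5.6e-06 and 8.7e-04). For Adamts10 the wild-type value was 0.57 ± 0.26, with the opposite sign and not called (edgeR, adjusted p = 0.10). That wild-type difference was called in 4 of 20 alternatives, at 0.57 to 0.90 (edgeR, adjusted p = 0.011 to 0.036). These were the replicate block, no low-count filter, and without female wild-type replicate 1 or male wild-type replicate 2. The sign also differed from wild type for Adamts1, Adamts4, Adamts5 and Adamts17, none called in the knockout. Their values were 0.14 ± 0.30, 0.70 ± 0.50, 0.57 ± 0.27 and -0.53 ± 0.22 (edgeR, adjusted p = 0.74, 0.28, 0.11 and 0.068). In the alternatives Adamts5 was called in 4 of 20 and Adamts17 in 3 of 20.

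**Figure D4:**
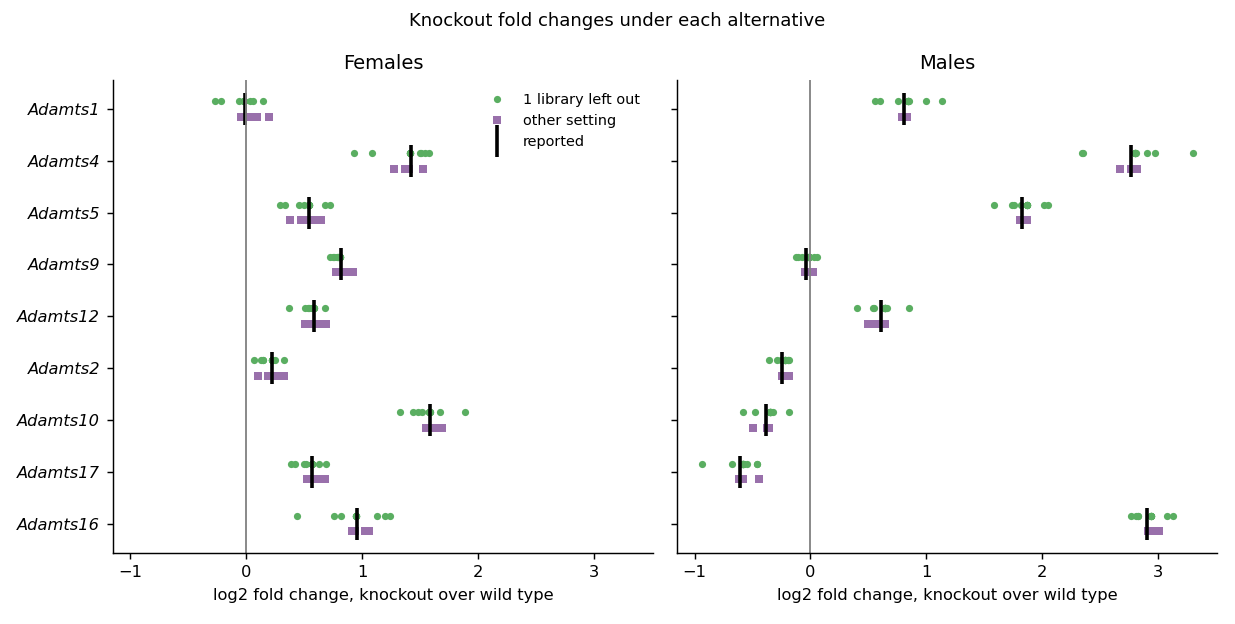
Log2 fold change of each member, knockout over wild type, as reported (black line), with 1 library left out (green circles) and under other settings (purple squares), for each sex on one scale. The values of Adamts9 and Adamts10 in females and of Adamts5 in males stay above 0 throughout, and Adamts1 in females and Adamts9 in males fall on both sides of 0.

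The genes around these proteases were described from lists of family members, substrates, inhibitors and processing enzymes. Of all genes, edgeR called 36.9% in females and 0.235% in males. DESeq2 called 6975 of the 17893 genes in females and 398 in males. The number called in each list is to be read beside the figures for the same tool and sex. Of the other 10 Adamts proteases, 8 were tested, and Adamts15, another proteoglycan-cutting member, was the one called in females (13.5 ± 2.80 CPM in wild type, 22.9 ± 2.29 in knockouts, log2 fold change 0.77 ± 0.16, edgeR adjusted p = 0.0029). In males 0 of 8 were called by edgeR or DESeq2, with 1 at an unadjusted p under 0.05. The medians of this list were 0.70 in females and -0.26 in males. Of 7 Adamts-like proteins, which lack a protease domain, Adamtsl4 rose in female knockouts (0.96 ± 0.28, edgeR adjusted p = 0.017), and in males 0 were called by edgeR and 1 by DESeq2, with 4 at an unadjusted p under 0.05.

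Among substrates, 1 of 7 tested fibrillar collagen chains was called by edgeR in each sex, and it was Col5a3, a minor chain of type V collagen, in both. Col5a3 stood at 4.63 ± 1.099 and 13.9 ± 2.01 CPM in female wild type and knockout and at 3.25 ± 0.0534 and 11.4 ± 2.94 CPM in males, with log2 fold changes of 1.58 ± 0.20 and 1.81 ± 0.21 (edgeR, adjusted p = 2.8e-04 and 0.0024). By DESeq2 2 of the 7 were called in males, and 6 were at an unadjusted p under 0.05. Of 11 microfibril and elastic fibre genes, Ltbp2 rose in female knockouts (0.47 ± 0.16, edgeR adjusted p = 0.037) and Fbn2, a fibrillin, rose in male knockouts from 0.251 ± 0.0955 to 1.75 ± 0.473 CPM (2.80 ± 0.49, edgeR adjusted p = 0.037). By DESeq2 5 of the 11 were called in males, and 7 were at an unadjusted p under 0.05. Of 3 tested hyaluronan-binding proteoglycans and link proteins, Hapln4 fell in females (-0.72 ± 0.20, edgeR adjusted p = 0.013) and 0 were called in males by edgeR or DESeq2 (0 at an unadjusted p under 0.05). Of 10 other substrates, Fmod fell and Nid2 rose in females (-0.72 ± 0.20 and 0.35 ± 0.12, edgeR adjusted p = 0.014 and 0.041), where DESeq2 called 3, and in males edgeR called 0 and DESeq2 2, with 6 at an unadjusted p under 0.05.

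Timp3, the tissue inhibitor that blocks the proteoglycan-cutting members, fell in female knockouts from 75.3 ± 6.55 to 53.7 ± 8.20 CPM (-0.49 ± 0.16, edgeR adjusted p = 0.028), and was the one called by edgeR of 6 tested inhibitors and uptake receptors, of which DESeq2 called 2. In males its fitted value was -0.45 (edgeR, adjusted p = 0.28), and 0 of the 6 were called by edgeR or DESeq2, with 2 at an unadjusted p under 0.05. Of 8 genes for maturation, Pofut2, which adds fucose to thrombospondin repeats, fell in females (-0.42 ± 0.11, edgeR adjusted p = 0.012), and 0 were called in males by either tool, with 2 at an unadjusted p under 0.05. Of 11 other extracellular metalloproteases, 4 were called in females, where 36.9% of all genes were called, so this number was near the background. Mmp9 and Mmp14 rose (1.07 ± 0.26 and 0.51 ± 0.14), and Adam10 fell (-0.60 ± 0.11; edgeR, adjusted p = 0.0061, 0.014 and 0.0016). Adam15, the smallest of the 4 changes and outside the rule for names, rose by 0.44 (edgeR, adjusted p = 0.0068). In males edgeR called 0 and DESeq2 2, with 6 at an unadjusted p under 0.05. The median log2 fold changes of the lists in females ran from -0.36 for inhibitors and uptake receptors to 0.70 for the other Adamts proteases, with 0.48 for the Adamts-like proteins, 0.31 for the other metalloproteases, 0.16 for the microfibril genes and 0.04 for the fibrillar collagens, beside 0.03 over all genes tested. In males they were 0.61 for the microfibril genes, 0.55 for the fibrillar collagens, 0.52 for the other metalloproteases, 0.33 for inhibitors and uptake receptors, 0.29 for other substrates, 0.16 for the hyaluronan-binding list, 0.15 for the Adamts-like proteins, -0.03 for maturation and -0.26 for the other Adamts proteases, beside -0.04 over all genes tested.

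**Figure D5:**
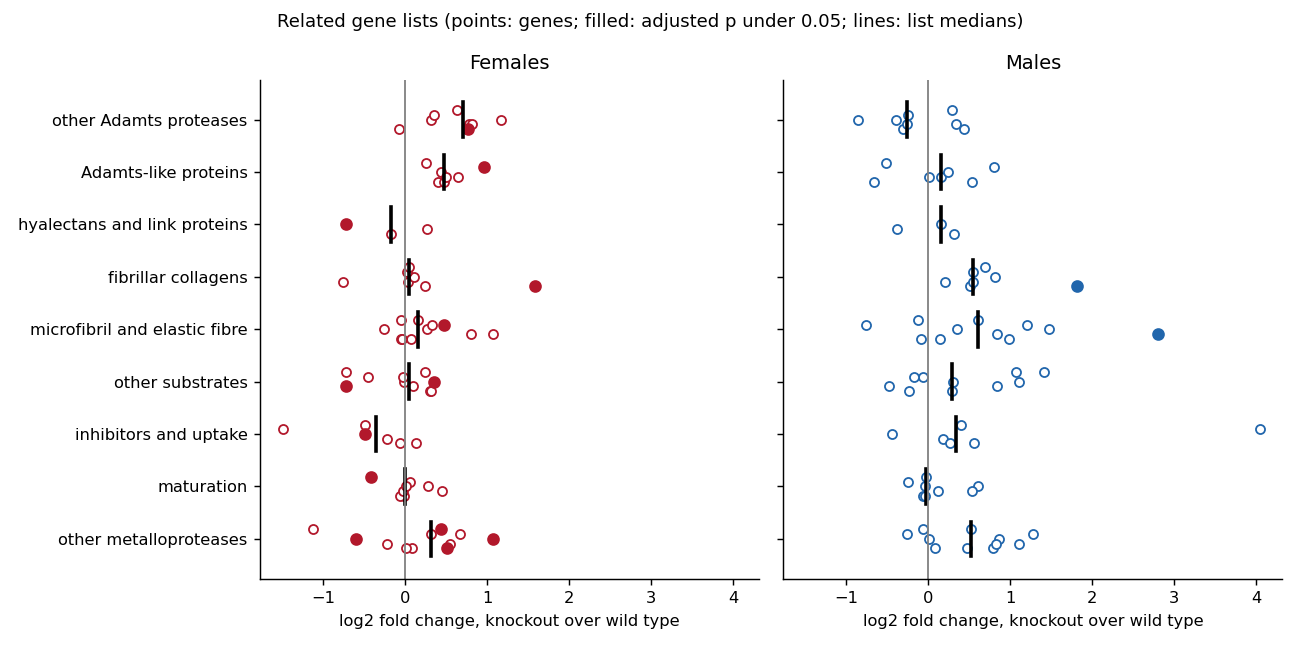
Log2 fold change of each tested gene of the related lists, knockout over wild type, in females and males; points are genes, filled where the adjusted p is under 0.05, and black lines are list medians. The filled point farthest to the right is Col5a3 in females (1.58) and Fbn2 in males (2.80).

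By the correlation of log2 CPM over the 12 libraries, used only to rank genes, the gene most like Adamts2 was Tmem52 (r = 0.99), and Pdgfa was among its 3 nearest. Those nearest to Adamts9 and Adamts10 were Plcd3 and Gga3 (r = 0.98 and 0.99), and those nearest to Adamts5 and Adamts4 were Rnf144a and Efcc1 (both r = 0.95). Lrrk2 was nearest to Adamts12 (r = 0.95), Tanc1 to Adamts17 (r = 0.94) and Gstp2 to Adamts1 (r = 0.91). The 12 libraries share the groups of the study, so a shared difference of sex or genotype gives a high r.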

How the data were processed

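The authors made a table of estimated counts with Salmon 1.10.1 against Gencode M35 (GRCm39) and deposited it with a normalized signal table, whose factors for each gene and library are not explained in the sources used here. The libraries were stranded and ribosomal RNA-depleted per the methods. Each column was assigned to a mouse by its label, and 0 columns belonged to other series.

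Estimated counts were rounded and analysed with edgeR 4.0.16 in R 4.3.3: TMM library sizes, the default filterByExpr filter, 1 mean per group over all 12 libraries, and the quasi-likelihood test with Benjamini-Hochberg adjustment over 17893 genes in each contrast. Levels are TMM-adjusted CPM. Gene lengths and sequences come from Gencode M39, in which the 9 members are 1 version later than in the count table, so levels per kb are approximate. Proteins were aligned with MAFFT 7.526. DESeq2 1.42.0, other scalings and filters, and leaving out each library were alternatives.

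All members were named. Of each related list, up to 3 called genes with the largest change per sex were named, and the 3 genes most like each member were ranked by Pearson r. Not every ranked gene is reported here. The members and lists were chosen with earlier results of these data known.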

Additional observations from a re-analysis of the deposited data

Results flagged for a closer look

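For 4 members the change in the knockout differed between the sexes by the test of that difference (edgeR interaction test, male change minus female change on the log2 scale, 3 libraries per group). The difference was 1.29 for Adamts5, which was higher in all 3 male knockouts than in any male wild type and overlapped in females, and this call was lost in 5 of the 12 fits that left out 1 library (adjusted p up to 0.079). It was -0.86 for Adamts9 and -1.97 for Adamts10, which were higher in all 3 female knockouts than in any female wild type and overlapped in males. It was -1.18 for Adamts17, which had opposite signs in the 2 sexes. No explanation was tested.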

How the results depend on the processing

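Directions changed with the setting for the 4 values of single members given here, and for no other member and comparison under the alternatives tried. Adamts1 in females (-0.01) was 0.0907 with upper-quartile scaling, 0.197 with the authors' factors, 0.0263 with at least 10 counts in every library, 0.0142 with the replicate block, and -0.27 to 0.15 with 1 library left out. Adamts1 between the sexes in the knockout (0.14) was -0.0244 with upper-quartile scaling and -0.11 to 0.41 with 1 library left out. Adamts9 in males (-0.04) was 0.0257 with the authors' factors and -0.124 to 0.0590 with 1 library left out. The interaction of Adamts12 (0.02) was -0.0539 with upper-quartile scaling, -0.0154 with the authors' factors, and -0.18 to 0.27 with 1 library left out.

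The number of members called in females (3) was 5 with upper-quartile scaling and 5 with a fit within each sex, and 2 to 4 with 1 library left out. In males (1) it was 3 without the low-count filter, 3 with DESeq2, and 0 to 4 with 1 library left out. It was 0 by edgeR without male knockout replicate 2 or 3 or male wild-type replicate 1 or 3 (3, 5, 6 and 5 members at an unadjusted p under 0.05, beside 6.03%, 7.34%, 8.36% and 8.27% of all genes), 4 without male knockout replicate 1 and 2 without female wild-type replicate 2. Over all genes, males had 42 calls by edgeR, 398 by DESeq2, 389 of 30910 without the low-count filter, 635 of 18575 without male knockout replicate 1 and 13 to 65 without any other single library. For the interaction (4) it was 3 to 5 with 1 library left out. Between the sexes in wild type (4) it was 2 with the authors' factors and 3 to 6 with 1 library left out, and in the knockout (3) it was 5 with upper-quartile scaling, 5 with the authors' factors and 3 to 5 with 1 library left out, the 5 without male knockout replicate 1. The cause was not tested.

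Equal replicate numbers did not pair the samples (correlation of deviations -0.13 to 0.09), and the replicate block gave 3, 1, 4, 6 and 3 calls in the 5 comparisons. A fit within each sex gives no interaction or sex comparison. Group mean levels were also taken with plain library totals, or per kb of the longest transcript. Under these settings 38 levels moved by more than the SD of their group and 34 did not. Adamts16 and Adamts4 dropped out with at least 10 counts in every library, and Adamts16 also dropped out of the fit within males. With 3 mice per group and few counts, Adamts4 and Adamts16 limit what these libraries can show.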
